A study of Rattus norvegicus with 9 samples.

Results

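The 8 genes described here encode neurotrophic factors and their receptors in rat brain. The ligands are Bdnf, Ntf3, Gdnf, Cntf, and Igf1, and the receptors are Ntrk2, Ntrk3, and Ngfr. They were chosen by name, and every probe of the array that carries one of these 8 symbols was taken, which gave 13 probes out of 30367 and 8 symbols out of 19293. For genes with more than 1 probe the brightest stands for the gene, and the others are given beside it. All 13 probes passed the filter on dim signals, which asks that some group have every one of its arrays well above background, as did 23747 probes in all. Bdnf was nevertheless not well above background on 1 I/R array, and Gdnf was not on 1 Sham array.

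Gene expression was read on 9 one-color Agilent rat arrays, 1 per rat, from 3 groups of 3 male Sprague Dawley rats killed at day 14. In the I/R group (labelled model) a filament closed the middle cerebral artery for 2 h before blood flow returned. The DHI group (labelled DH) had the same occlusion and then a daily tail vein injection of Danhong injection, a preparation from Salvia and Carthamus herbs. Sham rats had the neck artery exposed without a filament and received the solvent, and whether the I/R rats did is not stated plainly. The labels give no dose. The methods name the infarcted hemisphere as the tissue, the labels say brain, and the age of the rats is not given in the sources used here. Occlusion with a filament leaves an infarct that differs in extent between rats, and a hemisphere holds both infarcted and spared tissue. In such bulk samples fewer cells of a type and less RNA per cell cannot be told apart.

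Neurotrophins are secreted proteins that keep neurons alive and shape their synapses. Bdnf acts through TrkB (the product of Ntrk2), Ntf3 acts mainly through TrkC (Ntrk3), and all neurotrophins bind the p75 receptor (Ngfr), which has no kinase and can also take part in death signaling. Gdnf, Cntf, and Igf1 belong to other families and signal through the Ret kinase, through a gp130 receptor complex, and through the IGF receptor, while all of them support neurons or glia after injury.

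The values below are log2 relative signals, that is, the log2 of a probe's background-corrected signal over the 75th percentile of its array, so that 0 stands for a probe at that percentile. They compare arrays for one probe and do not rank genes. A DEG is called here at the thresholds of the study's methods (unadjusted p under 0.05 and fold change over 1.5), with limma as the test, and the p adjusted by Benjamini-Hochberg over all 23747 probes is given beside it. Before any of the 8 genes is considered, 1 array has to be named. On an axis from the Sham mean (0) to the I/R mean (1) over all tested probes, the Sham arrays lay between -0.04 and 0.11 and the I/R arrays between 0.58 and 1.24. DHI 2 and DHI 3 lay at -0.01 and 0.18, while DHI 1 lay at 0.92, with the I/R arrays. For the brightest probes of the 8 genes, results for DHI are therefore given with and without DHI 1. For other genes only a count of calls is given without it. The Sham and I/R arrays share 1 slide and scan while the 3 DHI arrays are on the other, so slide and treatment cannot be told apart in any comparison with DHI. Nothing in the labels says whether rats were processed apart, and p-values measure the spread between these 9 samples.

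The tissue itself differed in its cell type markers. A marker is said to rise or fall where it was a DEG. In I/R versus Sham 20.8% of all tested probes were called higher and 22.3% lower. All 12 neuron markers fell in I/R, with a median log2 fold change of -2.37, and their summed level ranged from 6.78 to 6.90 in Sham, from 3.53 to 5.83 in I/R, and from 5.24 to 6.94 in DHI (log2 of the sum of relative signals). Of 12 microglia and macrophage markers, 11 rose in I/R, with a median of 3.85 and summed levels of 4.36 to 4.67 in Sham, 7.36 to 8.72 in I/R, and 4.82 to 7.88 in DHI. All 7 markers of fibroblasts and meninges rose as well, with summed levels of 2.77 to 3.46 in Sham, 6.24 to 6.92 in I/R, and 2.79 to 6.72 in DHI. Of 10 astrocyte markers 5 rose and 2 fell, with a median of 0.54, and the summed astrocyte level ranged from 7.51 to 7.58 in Sham, from 7.46 to 7.76 in I/R, and from 7.37 to 7.52 in DHI. The sum weighs the brightest markers most. The mean log2 level of the astrocyte markers ranged from 2.39 to 2.49 in Sham, 3.26 to 3.49 in I/R, and 2.43 to 3.25 in DHI. Every marker in these 4 lists was well above background on all 9 arrays. Their part in the results below was not tested.

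In I/R versus Sham, 6 of the 8 genes were DEGs: Cntf, Igf1, and Ngfr rose, and Bdnf, Ntrk2, and Ntrk3 fell. Ntf3 and Gdnf were no DEGs, and of these Gdnf passed the threshold on fold change (1.75-fold) but not the one on p. This contrast moved a large part of the array, since 20.8% of all tested probes were called higher and 22.3% lower, so 3 of 8 in each direction has to be read against that background. With the adjusted p, 4 of the 8 were called (Bdnf, Cntf, Igf1, and Ntrk2), and 31.5% of all probes were. The arrays of the groups did not overlap for 5 of the 8, against 62.5% of all probes. The median log2 fold change was 0.62 over the 8 genes and -0.10 over all probes.

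Of the 8 genes, 3 were DEGs in DHI versus I/R. Bdnf and Ntrk2 were higher in DHI, Igf1 was lower, and 11.5% of all tested probes were called higher and 10.5% lower. With the adjusted p, limma called 0 of the 8, against 0.00421% of all probes, and the methods' t-test at the unadjusted p also called 0. The arrays of the groups overlapped for all 8 genes, while 9.53% of all probes did not overlap. The median log2 fold change was 0.15 over the 8 genes and 0.10 over all probes.

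In DHI versus Sham, 0 of the 8 genes were DEGs by limma or by the methods' t-test, and none had an unadjusted p under 0.05. The adjusted p ranged from 0.709 (Cntf and Ntf3) to 0.809 (Ntrk3). Over all tested probes, 2.52% were called higher, 1.06% lower, and 0% with the adjusted p. No gene of the 8 separated the groups without overlap, and 18.6% of all probes did. A p that misses the threshold does not show that values did not differ, and the 95% confidence intervals are wide, from -2.84 to 1.07 for Bdnf and from -1.23 to 3.73 for Igf1 on the log2 scale.

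**Figure D1:**
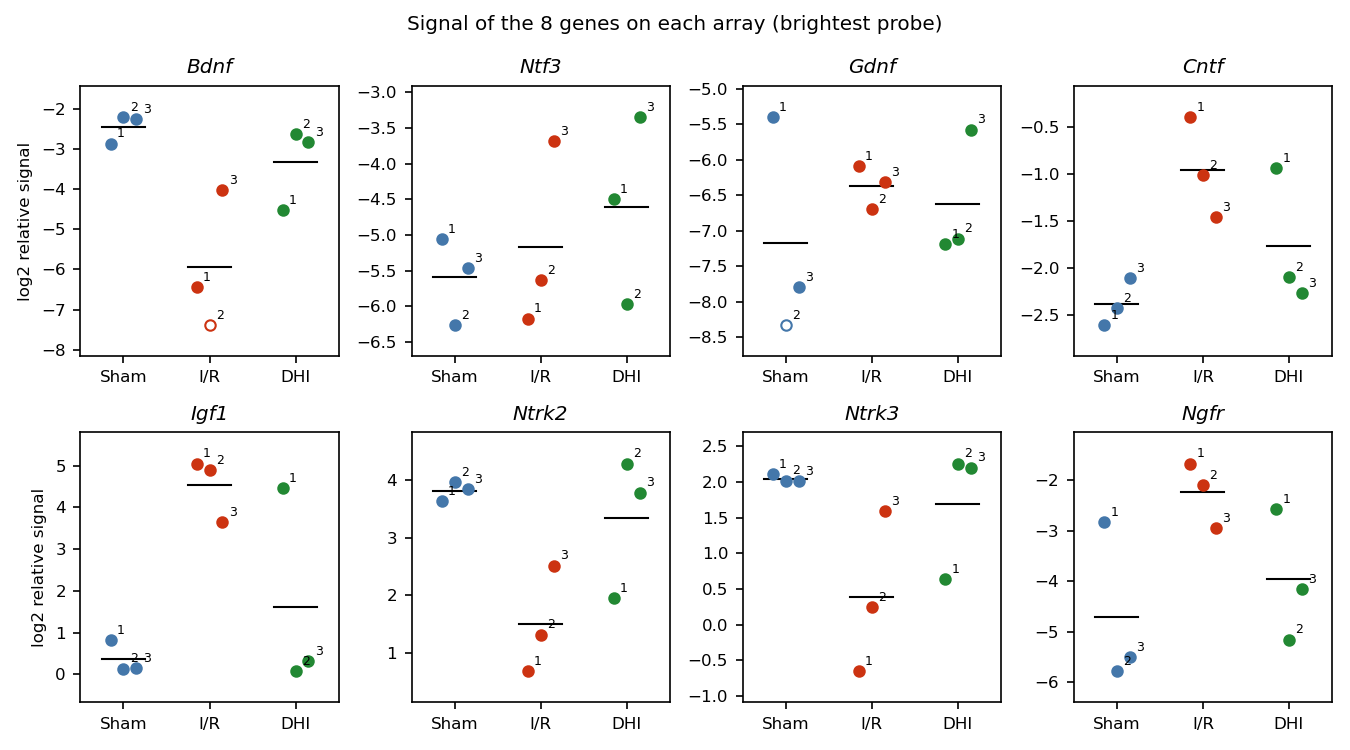
Log2 relative signal (vertical axis, a different range in each panel) of the brightest probe of each of the 8 genes on the 9 arrays by group, with the replicate number beside each point, the group mean as a line, and an open circle where the probe was not well above background. Bdnf, Ntrk2, and Ntrk3 lie lower and Cntf and Igf1 higher on all 3 I/R arrays than on all 3 Sham arrays. Of the DHI arrays, DHI 1 lies nearest to the I/R mean for every gene but Gdnf.

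**Figure D2:**
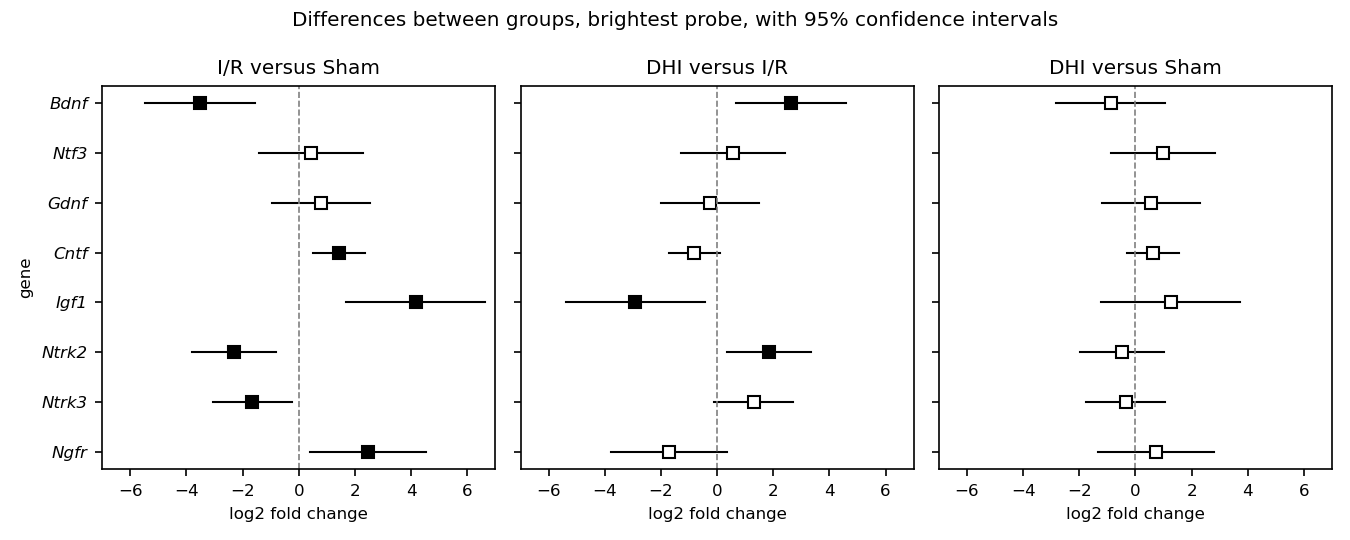
Log2 fold change (horizontal axis) of the brightest probe of each gene in the 3 comparisons, with 95% confidence intervals from limma; filled squares are DEGs at the methods' thresholds. In I/R versus Sham 6 squares are filled, in DHI versus I/R 3, and in DHI versus Sham 0.

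Bdnf, the neurotrophin that neurons release in an activity-dependent way, showed the largest fall among the 8 genes. Its single probe, printed on 10 spots per array, read -2.86, -2.20, and -2.25 in Sham, -6.43, -7.38, and -4.03 in I/R, and -4.52, -2.62, and -2.82 in DHI (arrays 1 to 3 of each group). The I/R arrays all lay below the Sham arrays, and the DHI arrays reached from the I/R range to the Sham range. The SD between the 10 spots of an array was at most 0.184 log2 units, far less than the spread between the I/R arrays.

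On I/R 2 the probe was not well above background, so 2 of the 3 I/R arrays measured it. Bdnf fell by 3.51 on the log2 scale in I/R versus Sham (SE 0.85, adjusted p = 0.0396), which is 11.4-fold. With normexp background correction, which lifts dim signals, it fell by 2.28. With array weights, which gave I/R 2 the largest weight (5.32), it fell by 4.87. It fell by 2.80 without I/R 2 and by 4.47 without I/R 3, and it stayed a DEG in all 4 cases. It was a DEG in DHI versus I/R, where it rose by 2.63 (SE 0.85, adjusted p = 0.196). The difference was 3.23 without DHI 1, 3.59 without I/R 3, 1.63 with normexp, and 4.36 with array weights, and leaving out I/R 2 (1.91) or DHI 2 (2.28) ended the call. The probe lies on sequence assigned to chromosome 3 without a placed position in the rn4 build.

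Ntf3 encodes neurotrophin 3, the preferred ligand of TrkC. Its probe read -5.06, -6.26, and -5.47 in Sham, -6.17, -5.63, and -3.68 in I/R, and -4.49, -5.96, and -3.35 in DHI. I/R 3, DHI 1, and DHI 3 lay above all Sham arrays, and the groups overlapped in all comparisons. The log2 fold changes were 0.43 (SE 0.81, 95% interval -1.43 to 2.29) in I/R versus Sham, 0.56 in DHI versus I/R, and 0.99 in DHI versus Sham. The first took the opposite sign without I/R 3 (-0.31) and the second without DHI 3 (-0.064). Without DHI 1 the second was 0.51. With array weights Ntf3 became a call in DHI versus I/R (1.95) and in DHI versus Sham (2.07). Those weights were 4.50 for DHI 3 but 0.094 for DHI 1 and 0.61 for DHI 2. On DHI 3 the SD between the 2 Ntf3 spots was 0.834 log2 units.

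Gdnf, a survival factor for dopamine and motor neurons that signals through Gfra1 and Ret, was dim throughout. It read -5.40, -8.33, and -7.79 in Sham, -6.09, -6.70, and -6.31 in I/R, and -7.19, -7.11, and -5.58 in DHI, and on Sham 2 it was not well above background. Sham 1 was the brightest of the 9 arrays and the other Sham arrays were the dimmest. The log2 fold change in I/R versus Sham was 0.80 (SE 0.76, adjusted p = 0.409). It was 1.69 and a call once Sham 1 was left out, so 1 control array decided this value. In DHI versus I/R the log2 fold change was -0.26 (SE 0.76), and 0.023 without DHI 1. For DHI versus Sham it was 0.55, with 1.43 and a call without Sham 1, 1.89 and a call with array weights, and -0.030 without Sham 2.

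Cntf, a cytokine held by astrocytes and Schwann cells that acts on neurons and oligodendrocytes, was higher after I/R. Its probe, also on 10 spots, read -2.60, -2.42, and -2.11 in Sham, -0.39, -1.01, and -1.46 in I/R, and -0.93, -2.09, and -2.27 in DHI. The I/R arrays lay above all Sham arrays, and in the DHI group DHI 1 was among the I/R values while DHI 2 and DHI 3 were at the Sham level. The rise was 1.43 (SE 0.40, adjusted p = 0.0405) or 2.69-fold. The difference of DHI from I/R was -0.81 (SE 0.40, adjusted p = 0.214) and no call. It became a call when DHI 1 (-1.23) or I/R 3 (-1.06) was left out, and also without scaling (-1.27) or with array weights (-1.26).

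Igf1, a growth factor made in the adult brain by neurons and, after injury, by microglia and macrophages, had the largest difference of the 8 genes. Its brightest probe read 0.82, 0.13, and 0.14 in Sham, 5.05, 4.90, and 3.65 in I/R, and 4.47, 0.07, and 0.31 in DHI. All I/R arrays stood clear of Sham, DHI 1 stood among them, and DHI 2 and DHI 3 matched Sham closely. Igf1 rose by 4.17 in I/R versus Sham (SE 1.08, adjusted p = 0.0396), or 18.0-fold.

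A second Igf1 probe, which lies in another part of the gene, read -0.38, -1.03, and -1.07 in Sham, 3.86, 3.79, and 2.40 in I/R, and 3.37, -1.22, and -0.93 in DHI. It gave a rise of 4.18 (adjusted p = 0.0401), and the log2 ratio of the probes differed by -0.01 between I/R and Sham. Between DHI and I/R the brightest probe differed by -2.91 (SE 1.08, adjusted p = 0.196), a DEG, by -4.34 once DHI 1 was left out, and by -4.51 with array weights. It was no DEG after dropping I/R 1 (-2.66), dropping I/R 2 (-2.73), dropping DHI 2 (-2.14), and dropping DHI 3 (-2.26), nor with the methods' t-test or with limma on these groups alone.

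Among the receptors, Ntrk2 carries the most information, because 4 probes read 3 transcript variants. Ntrk2 is known to give a full-length TrkB with the kinase and truncated receptors without it, whose messages end upstream of the kinase exons; the truncated form is abundant in astrocytes. The files place both variant 1 probes within 0.912 kb of each other at the far 3′ end on the minus strand of chromosome 17 (rn4), and the probes of variants 2 and 3 lie upstream of the brighter one by 185 and 240 kb. The files do not say which variant encodes which form of the receptor.

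The probes of 5 of the genes, 1 for each, are shown so that the measured stretch can be placed. They are thought to lie in coding sequence, which the files cannot show without an exon annotation, and no base is set in capitals. Every forward frame of the Gdnf probe holds a stop codon, and its longest open frame runs 54 bases before one. The Ntrk2 probe is the second variant 1 probe at chr17:11496095-11496154 (minus strand, rn4). The Ntrk3 probe is the second one, at chr1:134081453-134081512 (minus strand), and the Igf1 probe is the second one, at chr7:24587916-24587975 (plus strand). The Ntf3 probe lies at chr4:162436573-162436632 (minus strand) and the Gdnf probe at chr2:57423957-57424016 (plus strand).
Ntrk2: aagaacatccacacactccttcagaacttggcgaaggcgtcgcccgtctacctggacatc
Ntrk3: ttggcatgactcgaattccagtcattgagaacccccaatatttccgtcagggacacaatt
Igf1: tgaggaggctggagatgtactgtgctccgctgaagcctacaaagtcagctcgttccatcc
Ntf3: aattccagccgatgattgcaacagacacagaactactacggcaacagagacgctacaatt
Gdnf: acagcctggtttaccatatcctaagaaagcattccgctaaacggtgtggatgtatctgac

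The brighter variant 1 probe of Ntrk2 read 3.64, 3.96, and 3.84 in Sham, 0.68, 1.31, and 2.52 in I/R, and 1.95, 4.29, and 3.79 in DHI. The I/R arrays lay below all Sham arrays, DHI 1 was between I/R 2 and I/R 3, and the other DHI arrays were at the Sham level. It fell by 2.31 in I/R versus Sham (SE 0.64, adjusted p = 0.0405), or 4.97-fold. The second variant 1 probe, with the sequence above, read 0.91, 1.35, and 1.34 in Sham, -2.12, -1.51, and 0.10 in I/R, and -0.81, 1.29, and 1.02 in DHI, and fell by 2.37 (adjusted p = 0.0407). Both were DEGs in DHI versus I/R, higher by 1.84 (SE 0.64) and by 1.67, each with an adjusted p of 0.196. The brighter probe differed by 2.54 once DHI 1 was left out, and it was no DEG when I/R 1 (1.43) or I/R 2 (1.75) was dropped, and equally when DHI 2 (1.37) or DHI 3 (1.62) was dropped. The call was also lost without scaling (1.38), and with array weights the value was 2.52.

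The variant 2 probe read 0.84, 0.72, and 0.85 in Sham, 1.17, 1.13, and 1.00 in I/R, and 1.08, 0.48, and 0.92 in DHI. The I/R arrays were slightly above the Sham arrays without overlap, but the log2 fold change of 0.30 (SE 0.18, 95% interval -0.11 to 0.71) did not pass. The variant 3 probe read between -4.46 and -1.79 in Sham, between -4.33 and -2.74 in I/R, and between -4.06 and -1.69 in DHI, and none of its differences passed (-0.63, 1.15, and 0.52 in the 3 comparisons).

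The ratio of variant 1 to variant 2 on the same array needs no scale between arrays. The log2 ratio of the brighter variant 1 probe to the variant 2 probe was 2.80, 3.25, and 3.00 in Sham, -0.50, 0.18, and 1.52 in I/R, and 0.87, 3.81, and 2.87 in DHI; its size also holds the probes' own response. It was 3.01 ± 0.22 (SD, n = 3) in Sham and 0.40 ± 1.03 in I/R. The I/R and Sham arrays did not overlap, the difference was -2.61, and the two-sided exact permutation p was 0.1, the smallest that 3 against 3 arrays allow. In DHI the ratio was 2.52 on average, 2.11 above I/R with overlap (exact p = 0.2). With the second variant 1 probe the log2 ratio of variant 2 to variant 1 rose from -0.40 ± 0.29 to 2.28 ± 1.24, again without overlap (exact p = 0.1). The mean log2 ratio of the variant 1 probes to each other differed by 0.06 in I/R versus Sham (exact p = 0.8). It ran from 2.41 to 2.82 on the I/R arrays. In DHI versus Sham it differed by 0.23, without overlap and also with an exact p of 0.1. These ratios were looked at after the probe values were seen, among 8 probe pairs, and none of them could pass 0.05. They are given as a description, and they do not show that variant 2 stayed the same. When the median of the 4 probes stands for Ntrk2, its fall was 1.12 in log2 units (log2 fold change -1.12) in place of -2.31, and in DHI versus I/R the value became 0.78 and no longer a call.

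**Figure D3:**
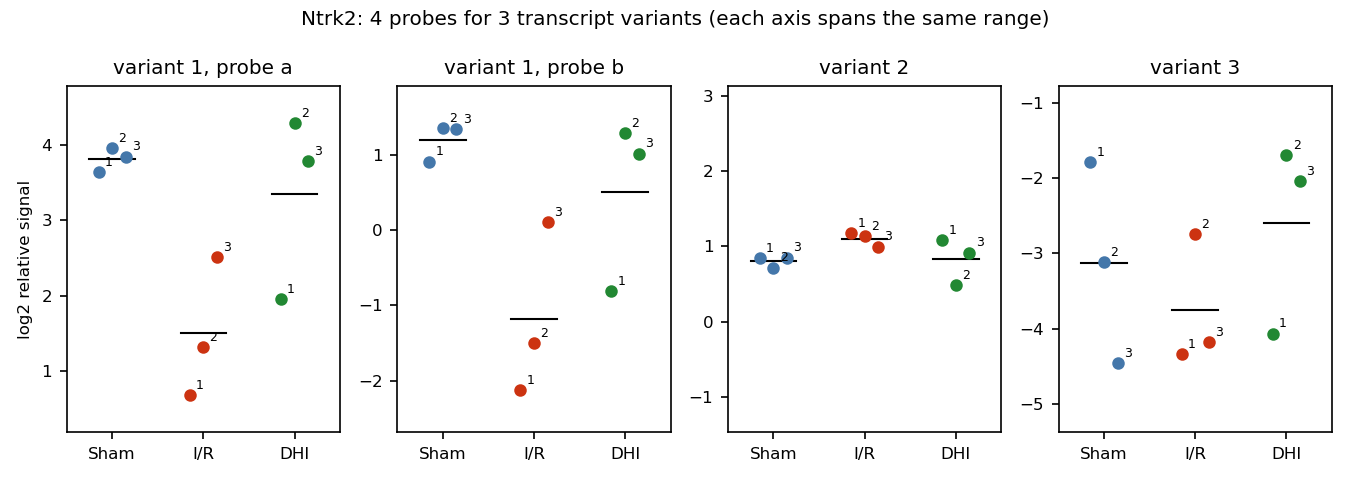
Log2 relative signal of the 4 Ntrk2 probes on the 9 arrays, by group, with the replicate number beside each point and the group mean as a line; each vertical axis spans the same number of log2 units, probe a is the brighter variant 1 probe and probe b the second. Both variant 1 probes drop in I/R (by 2.31 and 2.37 on average), while the variant 2 probe stays between 0.48 and 1.17 on all 9 arrays.

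Ntrk3 encodes TrkC, the receptor of neurotrophin 3. Its brighter probe read 2.11, 2.02, and 2.01 in Sham, -0.66, 0.24, and 1.59 in I/R, and 0.63, 2.26, and 2.20 in DHI. The Sham arrays lay close together, the I/R arrays lay below them, and DHI 1 lay within the I/R range. Ntrk3 fell by 1.65 in I/R versus Sham (SE 0.61, adjusted p = 0.0649), or 3.14-fold, and by 2.25 without I/R 3. The second probe, which lies about 156 kb upstream and is shown above, fell by 1.13 (adjusted p = 0.081), also a DEG. For the brighter probe this was no DEG when any of Sham 1 (-1.62), Sham 2 (-1.67), Sham 3 (-1.67), I/R 1 (-1.13), and I/R 2 (-1.58) was left out, nor with the methods' t-test. DHI differed from I/R by 1.30 (SE 0.61, adjusted p = 0.204), and this became a call with DHI 1 (1.84) or with I/R 3 (1.90) left out, and with array weights (1.98).

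Ngfr encodes the p75 receptor, which is scarce in most adult forebrain neurons and appears on glia and other cells after injury. Its probe, on 10 spots per array, read -2.83, -5.78, and -5.50 in Sham, -1.68, -2.11, and -2.95 in I/R, and -2.58, -5.15, and -4.16 in DHI. Sham 1 was slightly above I/R 3, so the groups overlapped, while Sham 2 and Sham 3 lay far below. The rise was 2.46 (SE 0.90, adjusted p = 0.064), or 5.50-fold. Without Sham 1 it was 3.39 and still a DEG, with normexp 1.78, and with array weights 3.14. Dropping Sham 2 (1.92), dropping Sham 3 (2.06), dropping I/R 1 (2.18), or dropping I/R 2 (2.39) ended the call, as did the methods' t-test. DHI differed from I/R by -1.72 (SE 0.90, adjusted p = 0.228), and this became a call when DHI 1 (-2.41) or Sham 1 (-1.72) was left out, the latter through the shared estimate of the spread. It was also a call without scaling (-2.18), with array weights (-2.16), and in a model of these groups alone.

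The 4 adjusted calls in I/R versus Sham had adjusted p-values between 0.0396 and 0.0405, close to the threshold. The count went to 0 when any single Sham array was left out, and likewise for I/R 1, for I/R 2, and for DHI 3, whereas it was 6 after dropping DHI 1. The 3 calls of DHI versus I/R became 6 after dropping DHI 1 (all but Ntf3 and Gdnf, 5 of them with the adjusted p) and 5 after dropping I/R 3. They became 1 after dropping I/R 1, 1 after dropping DHI 3, 0 after dropping I/R 2, and 0 after dropping DHI 2. With DHI 1 left out, the differences of DHI from Sham were -0.28 for Bdnf, -0.17 for Igf1, 0.20 for Cntf, 0.22 for Ntrk2, 0.18 for Ntrk3, and 0.046 for Ngfr, and larger for Gdnf (0.83) and Ntf3 (0.94). None of these was a call.

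The genes most like each of the 8 across the arrays were found by Pearson's r over the 9 arrays among 15583 other symbols, as a description. Each r rests on the same 9 arrays, of which the I/R arrays and DHI 1 stand apart from the rest, and r with that separation removed was not computed. For Bdnf these were Prnp (0.991), Cacng3 (0.990), and Kcnc2 (0.989), for Ntrk2 Kcnip4 (0.999), Ttc3 (0.998), and Nos1ap (0.998), and for Ntrk3 RGD1307443 (0.997), Armcx2 (0.997), and Pdxp (0.996). For Igf1 they were RT1-CE2, Fam176b, and Id3 (all 0.999), for Cntf Lrp1 (0.992), Hsd17b11 (0.992), and Coro1b (0.991), and for Ngfr Xkr8 (0.993) and Ccbe1 (0.980). Ntf3 and Gdnf, which differed between arrays of 1 group, had lower leading values, with Rsph9 (0.865) and Tbc1d10c (0.922).

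Other genes of the same systems were taken from lists of 88 genes, all of which were tested. In I/R versus Sham 20 of them were called higher and 26 lower, with 32 by the adjusted p, against 20.8% and 22.3% of the whole array and 31.5% by the adjusted p. The DHI versus I/R comparison called 11 higher and 13 lower, against 11.5% and 10.5% of the whole array, with 0 by the adjusted p in limma (0.00421% of the array). In DHI versus Sham 1 was higher and 0 lower, against 2.52% and 1.06%. Of the 88 genes, 4 passed the filter through 1 group alone, of which Gfra3 and Osmr did so through I/R, where they were high, and Ntf4 and Igfals through Sham.

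In the list of neurotrophin ligands, receptors, and sorting proteins, 7 of 12 genes fell and 2 rose in I/R versus Sham (median -0.83). Of all tested probes, 22.3% were called lower and 20.8% higher. Sort1, the sorting receptor sortilin, fell by 0.83 (adjusted p = 0.0396). Pcsk1, a convertase of the regulated secretory pathway, fell by 2.38 (adjusted p = 0.04), while Furin, a convertase of the constitutive pathway, rose by 1.32 (adjusted p = 0.0396) and Plat, which yields plasmin that cleaves proneurotrophins, rose by 1.19. Pcsk1 read between -2.02 and -1.82 in Sham and between -5.24 and -3.34 in I/R, and only DHI 1 (-3.81) stayed in the I/R range, with DHI 2 at -1.69. Sorcs3 (-1.83) and Sorcs1 (-1.57), of the sortilin family, fell too. In the DHI arrays Pcsk1 rose against I/R by 1.90 and Sorcs1 by 1.13, and Furin fell by 0.82 and Plat by 0.78. Ntf4, another ligand of TrkB, gave 0.35 (SE 0.38) in I/R versus Sham and no call, with 2 of 3 I/R arrays well above background.

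Of 30 genes of signaling downstream of Trk receptors, 4 rose and 9 fell in I/R versus Sham. Across the array, 20.8% of the tested probes were called higher and 22.3% lower. The adaptors Shc1 (3.00, SE 0.65) and Sh2b2 (2.88, SE 0.63) and the kinase Rps6ka1 (2.13, SE 0.49) rose, and Hras fell by 1.66 (SE 0.48). The same 4 were DEGs in the opposite direction in DHI versus I/R, with log2 fold changes of -2.03, -1.88, -1.20, and 1.25; both comparisons share the I/R arrays. Shc2 and Shc3, adaptors of the same family that neurons use, fell by 1.62 and 1.08 in I/R, and they were named after their values were seen.

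Of 9 genes of the GDNF family and its receptors, 1 was called higher (Gfra3) and 3 lower in I/R versus Sham. Over all tested probes, 20.8% were called higher and 22.3% lower. The receptor of Gdnf itself gave no call, with 0.27 (SE 0.23) for Gfra1 and 0.32 (SE 0.75) for Ret. Gfra2, the receptor of neurturin, fell by 1.63, Artn by 1.51, and Gfra4 by 1.94, and 2 of the 3 I/R arrays detected Gfra4 well above background. No Sham array detected Gfra3 well above background. Its I/R mean was 7.57-fold its Sham mean, with any Sham signal below the lowest detectable one raised to it. Since the gene passed the filter through I/R alone, its call there is no support for a rise. In DHI versus I/R, Artn rose by 1.32 and Pspn by 0.62. The value for Gfra3 was -2.28, with 1 of 3 DHI arrays well above background, so its size rests on signals near background.

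Of 14 genes of the CNTF family, 6 rose and 1 fell in I/R versus Sham, against 20.8% and 22.3% of all tested probes. The specific receptor Cntfr gave -0.57 (SE 0.32) and no call. Of the shared receptor subunits, Il6st (gp130) rose by 1.53 (SE 0.43, adjusted p = 0.0405) while Lifr fell by 0.87 (adjusted p = 0.0628). Il6st read 0.01, 0.38, and 0.18 in Sham, 2.15, 1.74, and 1.29 in I/R, and 1.72, 0.03, and 0.38 in DHI. The related cytokine Ctf1 rose by 1.70 and the downstream factor Stat3 by 1.27. For Osmr, which no Sham array detected well above background, the ratio found as for Gfra3 was 2.40-fold. As with Gfra3, this gene passed the filter through I/R alone, so its call there is no support for a rise. In DHI versus I/R, Il6st fell by 1.02, and Osmr gave -1.43 with 1 of 3 DHI arrays well above background.

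Of 14 genes of the IGF family, 4 rose and 3 fell in I/R versus Sham, against 20.8% and 22.3% of all tested probes. Igf2, the second ligand, read 2.57, 1.96, and 1.69 in Sham, 6.41, 6.09, and 5.83 in I/R, and 5.80, 1.8, and 1.97 in DHI, and rose by 4.04 (SE 0.96, adjusted p = 0.0396). The I/R arrays were all above the Sham and DHI arrays, and DHI 1 came within 0.1 of I/R 3. Igf1r, the receptor, gave -0.36 (SE 0.17, adjusted p = 0.113), with arrays that did not overlap. The binding proteins, which hold IGFs outside cells, differed in direction: Igfbp2 (3.09) and Igfbp5 (2.17) rose, Igfbp4 fell by 1.65, and Igfbp3 (-0.10) and Igfbp6 (0.65) gave no call. In the DHI versus I/R comparison Igf2 fell by 2.92, Igfbp2 by 2.21, and Igfbp7 by 1.21, and Igfbp4 rose by 2.16. Igf2 and Igfbp2 are known to be made by meninges and choroid plexus. Of the 7 markers of fibroblasts and meninges, 7 rose in I/R versus Sham. In DHI versus I/R 6 of them fell, and 10.5% of all tested probes were called lower. Of 5 tested choroid plexus markers, 2 rose and 0 fell in I/R versus Sham. The choroid plexus markers had summed levels of -1.31 to -0.02 in Sham, 0.57 to 6.56 in I/R, and 2.91 to 7.13 in DHI, and 4 of the 5 were well above background on all 9 arrays. Their part in these results was not tested.

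Of 9 further neurotrophic factors, 3 rose and 3 fell in I/R versus Sham, against 20.8% and 22.3% of all tested probes. Nrn1 (-3.36), Vgf (-3.01), and Nrg1 (-2.46), which neurons make, fell in I/R versus Sham, and Hgf rose by 1.73. Vgf, whose product is known to be induced by Bdnf, read 4.34, 4.59, and 4.28 in Sham, 1.00, 1.19, and 2.00 in I/R, and 1.60, 4.69, and 4.23 in DHI. All 4 moved the other way in DHI versus I/R, with 2.5 for Nrn1, 2.11 for Vgf, 1.52 for Nrg1, and -0.94 for Hgf, each with an adjusted p of 0.196. Both comparisons share the I/R arrays, and the 4 genes were named for large changes, so the opposite signs are no separate evidence.

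**Figure D4:**
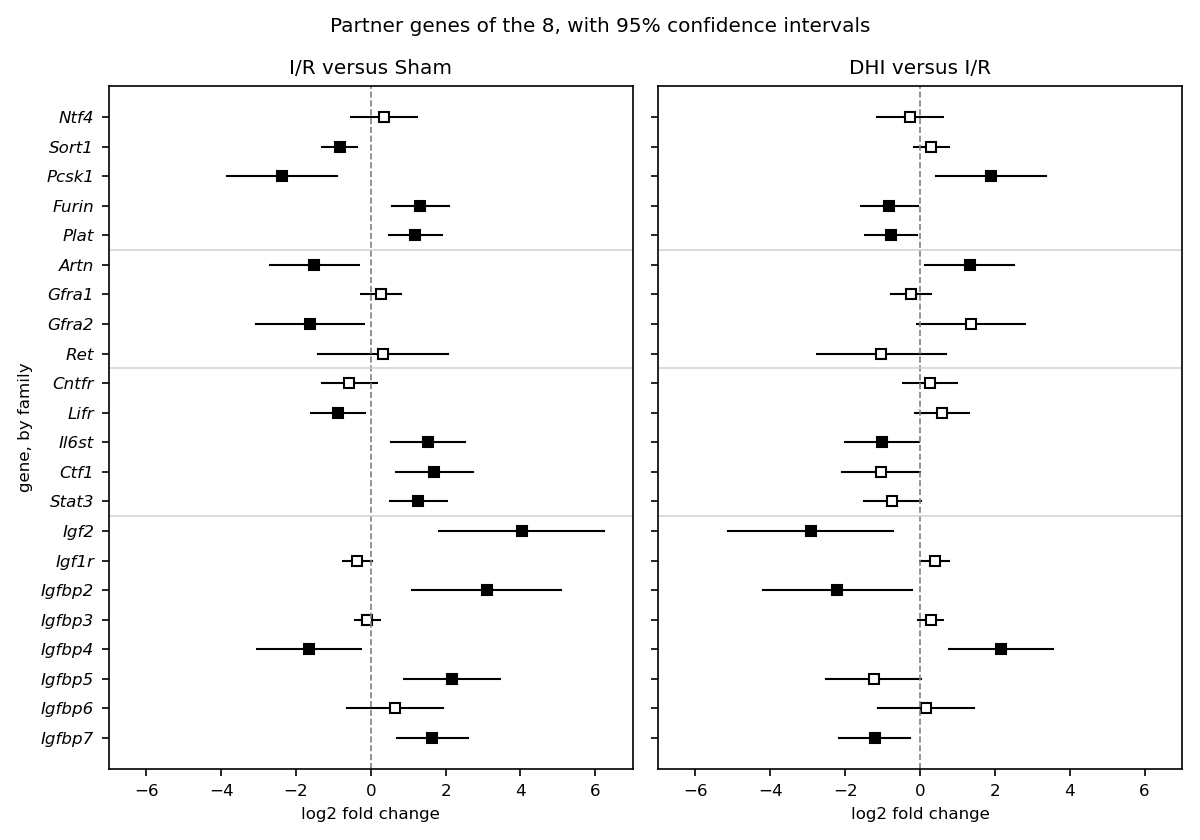
Log2 fold change (horizontal axis) with 95% confidence intervals from limma for partner genes, ordered by family from neurotrophins through the GDNF, CNTF, and IGF families, with I/R versus Sham on the left and DHI versus I/R on the right; filled squares are DEGs. Igf2 lies farthest to the right in I/R versus Sham (4.04), and Gfra1, Ret, Cntfr, and Igf1r have open squares on both sides.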

How the data were processed

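Labels gave 3 Sham, 3 I/R, and 3 DHI arrays. For each array the authors deposited spot intensities on a linear scale from Agilent Feature Extraction 10.7.1.1 (submitters' processing notes), background-corrected within each array only. The log2 values they also deposited, with a single value per probe, served only as an alternative. Control spots and spots marked as outliers were left out, log2 signals were reduced by the array's 75th percentile, and spots of a probe were averaged. Processed signals of dim probes depend on that background step. The array percentile ranged from 1816 to 3464 intensity units, 75.2% to 78.9% of probes were well above background, and no probe was saturated. The number of arrays limits the precision.

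One limma 3.58.1 model (R 4.3.3, with the package data.table in version 1.17.8) with lmFit and eBayes took in the 9 arrays, without a covariate and with 6 residual degrees of freedom. The methods name a t-test, which is an alternative. The steps were tested on simulated data. Probe ratios were compared by two-sided exact permutation tests. The 8 genes and the lists were chosen with earlier results of these data known. Named partner genes are up to 4 of the largest called changes per list and comparison plus direct partners of the 8 genes, and a few of these genes are left unreported. Replicates of a group correlated at r of 0.917 to 0.993 across probes, so none was a duplicate. No value column was left unused (0 columns). Coordinates are those of the files (rn4), without an exon annotation.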

Additional observations from a re-analysis of the deposited data

How the results depend on the processing

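Directions of the 6 DEGs of I/R versus Sham were the same under all 20 alternatives that gave a value (11 settings and leaving out each of 9 arrays), and 4 to 6 of the 8 genes were called. Bdnf and Gdnf gave no value when probes had to be well above background on all 9 arrays. The adjusted count of I/R versus Sham was 0 without scaling and 0 to 6 when leaving out 1 array. In DHI versus I/R the count of genes called was 7 with array weights (7 by the adjusted p), 0 with the methods' t-test, and 0 to 6 (0 to 5 by the adjusted p) when leaving out 1 array. In DHI versus Sham it was 2 with array weights (1 by the adjusted p) and 0 to 1 when leaving out 1 array. Of the 88 partner genes, those called in DHI versus I/R numbered 11 with only both groups compared in the model, 50 with array weights, and 1 with the methods' t-test. Leaving out 1 array gave 3 to 47, with 47 when DHI 1 was left out. Those called in DHI versus Sham numbered 0 with quantile normalization or the authors' series table, 7 without scaling, 6 with normexp, 3 with only both groups compared or with the median of a gene's probes, 8 with array weights, and 0 to 7 when leaving out 1 array.

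Signs turned only for differences that were no calls. With normexp Gdnf in DHI versus I/R became 0.34, and with array weights it became 0.84 and Ntrk3 in DHI versus Sham 0.15. Leaving out 1 array gave a range of -0.31 to 0.93 for Ntf3 in I/R versus Sham. For DHI versus I/R the range was -0.064 to 1.30 for Ntf3 and -0.78 to 0.023 for Gdnf. In DHI versus Sham the ranges were -0.030 to 1.43 for Gdnf, -0.17 to 2.02 for Igf1, -0.94 to 0.22 for Ntrk2, and -0.63 to 0.18 for Ntrk3, with DHI 1 left out at the end that turned the sign of the last 3. The cause was not tested, except that array weights give DHI 1 and other arrays that stand apart less weight by construction. The weights ran from 0.094 for DHI 1 to 5.32 for I/R 2, with 4.50 for DHI 3. I/R 2 and DHI 3 therefore count most in the weighted values of their groups.

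Same-numbered arrays of different groups deviated together with r between -0.34 and 0.48. With 3 arrays per group and no reference computed for such r, these values cannot decide whether replicate numbers pair the samples. With the replicate number as a block, 6 of the 8 genes were called in I/R versus Sham (6 by the adjusted p), 5 in DHI versus I/R (0 by the adjusted p), and 0 in DHI versus Sham, with 46, 32, and 3 partner genes.

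Scaling moved all probes. Without it the median log2 fold change shifted by 0.20 in I/R versus Sham, -0.46 in DHI versus I/R, and -0.26 in DHI versus Sham, and with normexp by 0.13 and 0.12 in the DHI comparisons. For I/R versus Sham the split of calls over the array was 4950 higher against 5291 lower, and 6003 against 3850 without scaling. In DHI versus I/R they were 2721 and 2490, with 357 and 7079 without scaling and 3163 and 1800 with normexp. In DHI versus Sham they were 598 and 251, with 88 and 1600 without scaling, 294 and 489 with quantile normalization, and 1246 and 95 with normexp. Dim probes (Bdnf in I/R, Gdnf, Ntf3) have signals close to background, which limits their fold changes.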
